A study of Mus musculus with 9 samples.

Results

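This section concerns 35 genes of the endoplasmic reticulum (ER) folding machinery and of the unfolded protein response, chosen by name from a list of chaperones and folding enzymes (15 genes), ER-associated degradation (7), stress sensors and their transcription factors (5), the ATF4 arm (5) and the translocon (3). Each gene was read from the probe set that carries its symbol and has the highest mean over all 9 arrays. All 35 were on the array, which names 18193 genes, and all 35 were among the 13079 genes bright enough to be tested. The cells were CD11b+ splenocytes of C57BL/6 mice, taken from adherent spleen cells with magnetic beads, and the question was how their gene expression differs between mice under repeated social threat and mice that were not threatened. The HighThreat group comprised 6 mice with 1 Affymetrix MOE430 array each (animals 1 to 6). The LowThreat group comprised 3 arrays, each of cells pooled from 2 mice (pools 1-2, 3-4 and 5-6), so the spread between LowThreat arrays is a spread between pools. No genetic change or drug is named for either group, and the labels give no age, sex or hybridisation batch.

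The ER folds and glycosylates proteins that are to be secreted or placed in membranes. When unfolded chains accumulate, the membrane sensors PERK, IRE1 and ATF6 are activated: PERK phosphorylates the initiation factor eIF2alpha, which lowers translation in general and raises that of ATF4, IRE1 splices Xbp1 mRNA, and ATF6 is cut in the Golgi to release a transcription factor. Together they raise transcription of chaperones and of the machinery that returns misfolded chains to the cytosol for degradation, and plasma cells, which secrete antibody, are known to need the XBP1 branch in particular.

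Of the 35 genes, 6 were higher in HighThreat, 15 were lower and 14 did not pass the test (limma, Benjamini-Hochberg adjusted p under 0.05 over all 13079 genes). The share called higher was 17.1%, against 23.8% of all genes tested, and the share called lower was 42.9%, against 22.0% of all genes tested. The genes called higher were Atf6b, Edem2, Sdf2l1, Sec61b, Derl2 and Ppp1r15b. Those called lower were Eif2ak3, Ern1, Dnajb9, Hsp90b1, Hspa5, Xbp1, Atf4, Ddit3, Ppp1r15a, Manf, Atf6, Calr, Hyou1, Syvn1 and Canx. The median difference, HighThreat minus LowThreat, was -0.10 on the log2 scale over the 35 genes and 0.03 over all genes tested, and 23 of the 35 differences lay below 0, against 5682 of 13079 over all genes. Counts and medians of this list carry no test of their own.

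Most of these differences were small. Among calls of at least 1.5-fold, 2 of the 35 genes (5.71%) were higher, against 5.31% of all genes tested, and 3 (8.57%) were lower, against 5.90% of all genes tested, so at this size the shares were near those of all genes. The values of the groups did not overlap, with HighThreat higher, for 6 of the 35 genes (17.1%), against 21.5% of all genes tested. They did not overlap, with HighThreat lower, for 13 of the 35 genes (37.1%), against 20.3% of all genes tested. Within HighThreat the SD of a gene over the 6 animals had a median of 0.06 on the log2 scale, and within LowThreat its median over the 3 pools was also 0.06. After each gene was centred on its mean over the 9 arrays, the median of the 15 genes called lower lay between -0.17 and -0.09 in the 6 HighThreat animals and between 0.26 and 0.28 in the LowThreat pools. For the 6 genes called higher it lay between 0.14 and 0.21 in the HighThreat animals and between -0.40 and -0.21 in the LowThreat pools. The calls rest on these same values, so this is a description only.

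**Figure D1:**
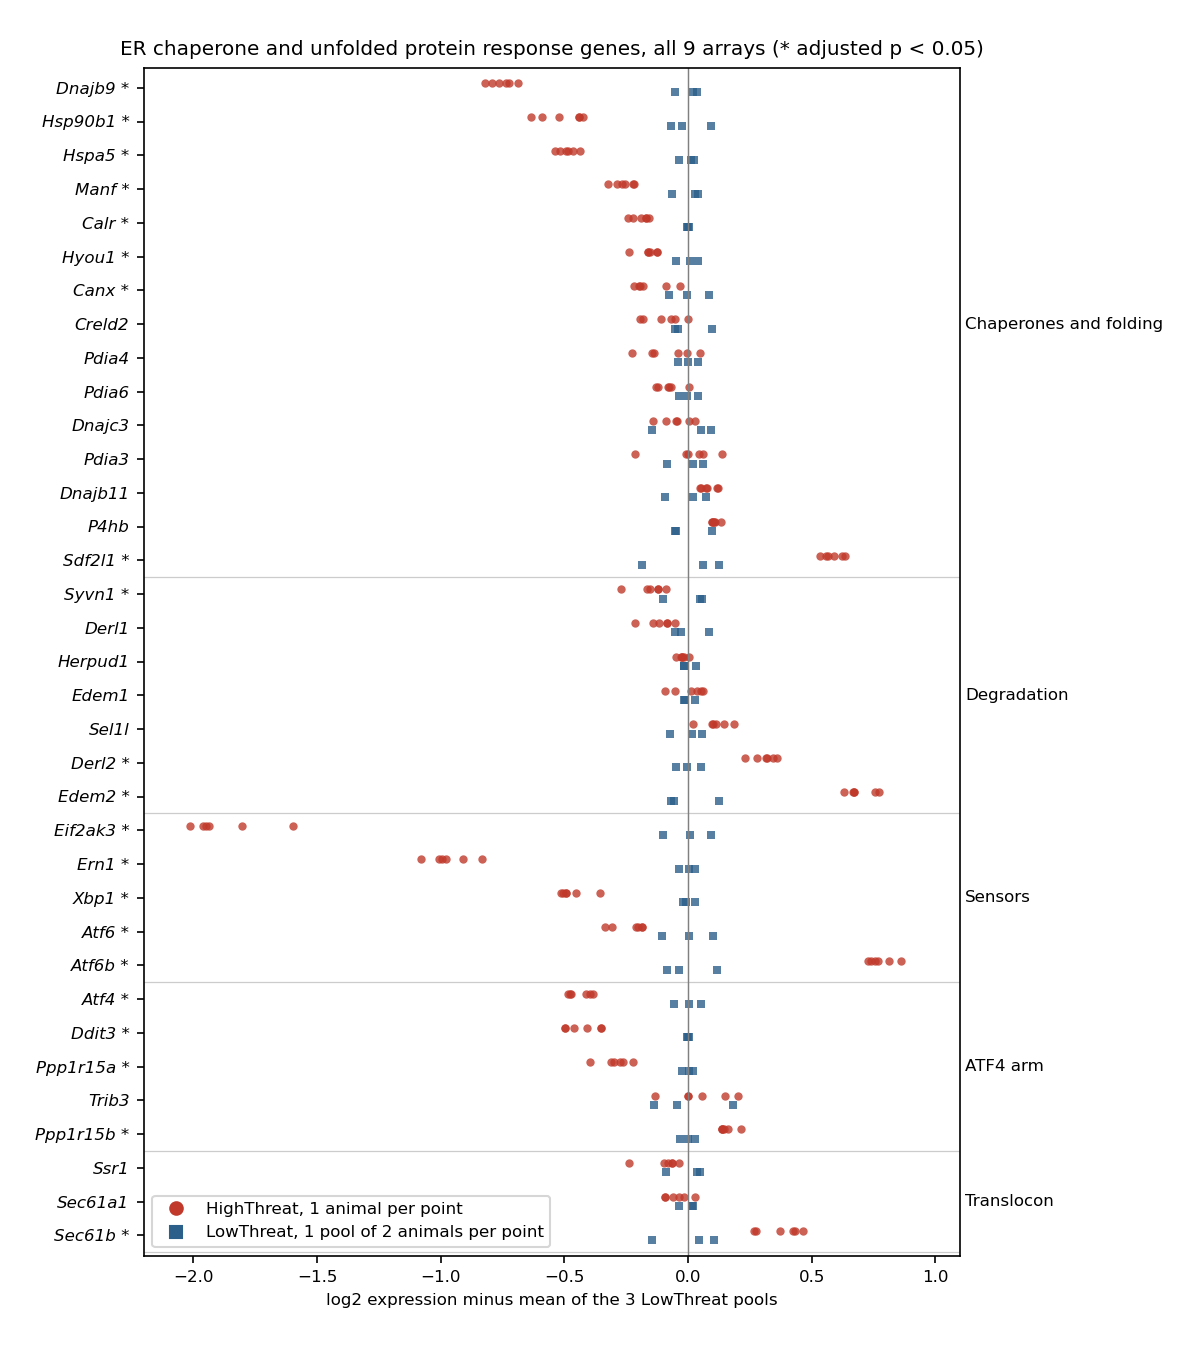
Log2 expression of each of the 35 genes on every array, as the difference from the mean of the 3 LowThreat pools, with 6 HighThreat animals (red circles) drawn above 3 LowThreat pools (blue squares) in each gene's row, and an asterisk where the adjusted p was under 0.05. The HighThreat points of Eif2ak3 and Ern1 lie farthest left, and those of Atf6b, Edem2 and Sdf2l1 farthest right, each apart from the LowThreat points.

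**Figure D2:**
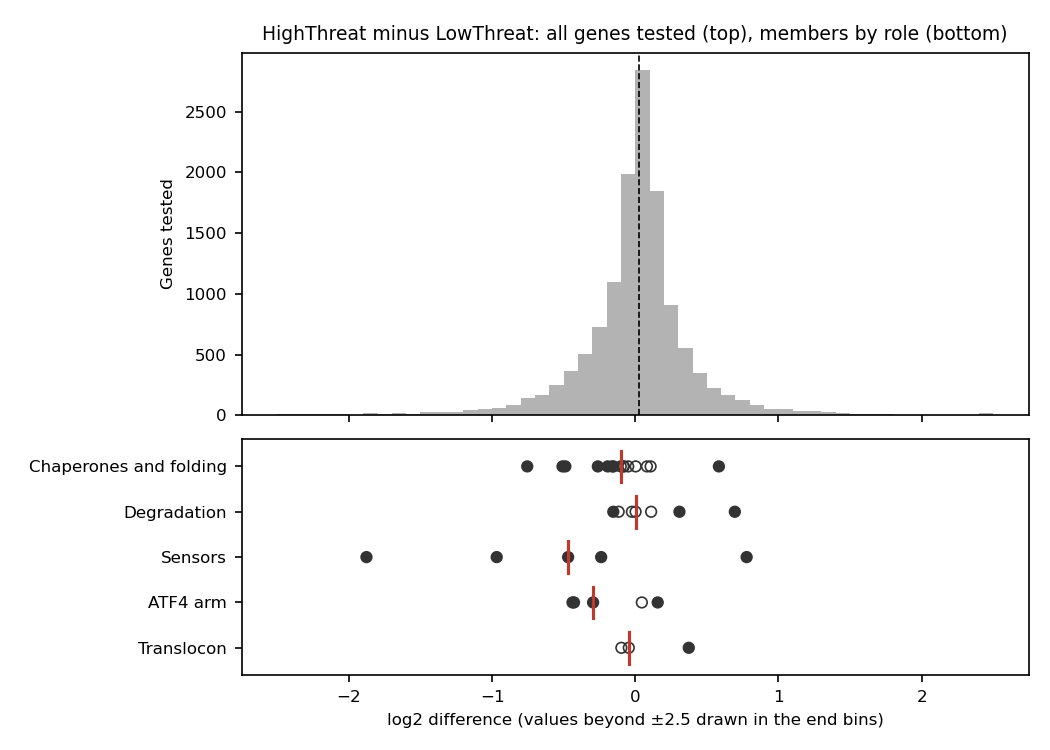
Top, histogram of the log2 difference, HighThreat minus LowThreat, of the 13079 genes tested, with the median of 0.03 as a dashed line. Bottom, the 35 genes by role (filled, adjusted p under 0.05; open, not; red line, median), where the 5 sensors and transcription factors run from -1.88 to 0.78.

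Bulk RNA from sorted cells cannot tell fewer cells of a type apart from less RNA per cell, and markers of several cell types differed between the groups. Plasma cells, which secrete antibody and are rich in ER, are among the cell types of the spleen. Of 7 plasma cell markers tested, 5 were lower in HighThreat (71.4%, against 22.0% of all genes tested). The other 2 (Sdc1 and Tnfrsf13b, named after their values were seen) were higher (28.6%, against 23.8%). The mean log2 value of the 8 markers on the array lay between 5.35 and 5.55 in HighThreat animals and between 6.34 and 6.53 in LowThreat pools. Pou2af1, a B lineage coactivator, fell by 2.59 on the log2 scale (SE 0.132, limma adjusted p 1.12e-08), and Prdm1, the plasma cell regulator also present in myeloid cells, fell by 0.30 (SE 0.0636, limma adjusted p 0.00167). The part that these cells have in the results on the ER genes was not tested.

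The other marker lists held called genes as well, beside 22.0% called lower and 23.8% called higher over all genes tested. B cell markers were lower for 6 of 7 tested, and their mean lay between 4.79 and 5.18 in HighThreat and between 6.87 and 7.07 in LowThreat, with Ebf1 at -2.59 and Cd79a at -2.31. Dendritic cell markers were lower for 7 of 7 (mean 5.20 to 5.29 in HighThreat and 6.22 to 6.30 in LowThreat), with Cd209a at -2.16 and Itgax at -1.01. Natural killer cell markers were lower for 5 of 6 (4.19 to 4.43 in HighThreat and 5.79 to 6.05 in LowThreat), with Gzma at -3.11 and Klrd1 at -1.52. Red pulp macrophage markers were lower for 4 of 6 and higher for 1, Slc40a1, named after its value was seen (7.08 to 7.15 in HighThreat and 7.76 to 7.78 in LowThreat), with Hpgd at -2.31 and Hmox1 at -0.20. T cell markers were lower for 3 of 5 (3.73 to 3.85 in HighThreat and 4.20 to 4.35 in LowThreat), with Cd5 at -0.96 and Cd4 at -0.41. Plasmacytoid dendritic cell markers were lower for 2 of 5 (4.75 to 4.83 in HighThreat and 5.00 to 5.26 in LowThreat), with Tcf4 at -0.88 and Bst2, which did not pass, at -0.15. Granulocyte and granulocyte precursor markers were higher for 10 of 11 (10.2 to 10.7 in HighThreat and 8.69 to 8.84 in LowThreat), with Prtn3 at 3.48 and S100a9 at 0.47. The label, CD11b+ adherent spleen cells, names none of these types. Monocyte and macrophage markers were above the filter for 7 of 7 on the array and higher for 5. Their mean was 9.35 to 9.44 in HighThreat and 8.96 to 9.09 in LowThreat, with Fcgr1 at 0.83 and Lyz2 at 0.12. The single-gene values are HighThreat minus LowThreat log2 differences, and the part of these cell types in the results was not tested either. Itgam, which encodes the CD11b used for selection, had 8.40, 8.51 and 8.58 as its lowest, median and highest HighThreat value, against 7.91, 7.96 and 7.92 in LowThreat pools 1-2, 3-4 and 5-6.

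The 5 sensors and their transcription factors all passed the test, with a median difference of -0.47. Of them 4 were lower (80%, against 22.0% of all genes tested) and 1 was higher (20%, against 23.8%). Eif2ak3 encodes PERK, the ER membrane kinase that phosphorylates eIF2alpha. Its lowest, median and highest log2 values were 5.83, 5.90 and 6.25 in HighThreat animals, against 7.85, 7.74 and 7.94 in LowThreat pools 1-2, 3-4 and 5-6. Every HighThreat animal lay far below every LowThreat pool, and animal 1 was the highest of the 6. The difference was -1.88 (SE 0.085, limma adjusted p 4.36e-09), a 3.67-fold lower level, and Eif2ak3 ranked 57 from the lowest difference among the 13079 genes tested. The 2 dimmer probe sets for Eif2ak3 gave -0.24 (limma adjusted p over all probe sets tested 0.0139) and -0.30 (0.0584), both negative and smaller in size, and the mean of its probe sets gave -0.81 (limma adjusted p 3.9e-07).

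Ern1 encodes IRE1alpha, the sensor kinase and endoribonuclease that splices Xbp1 mRNA. In HighThreat animals it had 5.63, 5.73 and 5.88 as lowest, median and highest log2 value, against 6.74, 6.68 and 6.72 in the LowThreat pools. The groups did not overlap. Ern1 was 1.96-fold lower in HighThreat (log2 difference -0.97, SE 0.0565, limma adjusted p 3.41e-08), whereas the 2 dimmer probe sets tested gave -0.16 and -0.15 and did not pass (adjusted p over all probe sets 0.0656 and 0.204). The mean of all its probe sets gave -0.28 (limma adjusted p 0.000298). Xbp1, the transcription factor whose mRNA IRE1 splices, had 9.54, 9.56 and 9.70 in HighThreat animals, against 10.08, 10.04 and 10.03 in LowThreat pools. HighThreat animal 6 was the highest of its group and still lay below all pools. The difference was -0.47 (SE 0.0486, limma adjusted p 5.64e-06), and 2 other bright probe sets gave -0.53 and -0.59, while a dim one gave 0.03 (adjusted p over all probe sets 0.806). These values do not separate the spliced from the unspliced mRNA.

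Atf6 and Atf6b encode paralogous ER membrane transcription factors that are released by cleavage in the Golgi, and they differed in opposite directions. Atf6 had 6.78, 6.91 and 6.93 in HighThreat animals, against 7.12, 7.22 and 7.01 in LowThreat pools, a difference of -0.24 (SE 0.0582, limma adjusted p 0.00476). Atf6b had 6.08, 6.11 and 6.21 in HighThreat animals, against 5.26, 5.31 and 5.47 in LowThreat pools. All 6 animals lay above all 3 pools for Atf6b, which was 1.71-fold higher (log2 difference 0.78, SE 0.055, limma adjusted p 1.87e-07). For Atf6 all 6 animals lay below all pools, and its other probe sets gave -0.49, called lower, and 0.02, not called. The difference between the differences of Atf6 and Atf6b was not tested.

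The bases upstream of the RefSeq start of the sensors with the largest differences are shown here because these genes carry the largest changes of the list. They run from 100 bases before the start to 1 base before it, and for Eif2ak3 to 32 bases before it, just outside the gene's span in the RefSeq table. They come from RefSeq on mouse build GRCm38.p6 and are written 5′ to 3′ on the gene's strand. Eif2ak3 lies on the plus strand (chr6:70844415-70844483), Ern1 on the minus strand (chr11:106487797-106487896) and Atf6b on the plus strand (chr17:34647046-34647145). None of the 5 motifs searched (described with the chaperones) lies in their windows, so no base is in capitals.
Eif2ak3: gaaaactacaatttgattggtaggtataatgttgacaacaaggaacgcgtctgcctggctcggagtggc
Ern1: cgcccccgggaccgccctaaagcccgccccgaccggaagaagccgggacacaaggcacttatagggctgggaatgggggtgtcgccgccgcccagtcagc
Atf6b: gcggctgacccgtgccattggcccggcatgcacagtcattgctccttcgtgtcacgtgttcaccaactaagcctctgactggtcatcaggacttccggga

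In the ATF4 arm 3 of 5 genes were lower (60%, against 22.0% of all genes tested) and 1 was higher (20%, against 23.8%). The remaining 1 did not pass, and the median was -0.29. Atf4 encodes the transcription factor that is translated when eIF2alpha is phosphorylated. Its HighThreat values were 9.18, 9.22 and 9.28 (lowest, median and highest), against 9.67, 9.61 and 9.72 in LowThreat pools, with no overlap and a difference of -0.44 (SE 0.0476, limma adjusted p 8.35e-06). Ddit3, which encodes CHOP, a factor tied to cell death under prolonged stress, had 6.61, 6.68 and 6.76 in HighThreat animals, against 7.11, 7.11 and 7.11 in LowThreat pools. The pools were almost equal and lay above every HighThreat animal, and the difference was -0.43 (SE 0.0503, limma adjusted p 1.68e-05). The other probe set of Ddit3 gave -0.59 and was also called lower.

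Ppp1r15a and Ppp1r15b encode the inducible and the constitutive subunit that direct a phosphatase to eIF2alpha. Ppp1r15a had 9.39, 9.50 and 9.56 in HighThreat animals, against 9.79, 9.80 and 9.76 in LowThreat pools, a difference of -0.29 (SE 0.0485, limma adjusted p 0.000276). Ppp1r15b had 7.81, 7.81 and 7.88 in HighThreat animals, against 7.64, 7.70 and 7.67 in LowThreat pools. It was higher by a small amount, 0.16 (SE 0.0429, limma adjusted p 0.00951), without overlap of the groups and in both of its probe sets, whose mean gave 0.25 (limma adjusted p 0.00589). Trib3, a pseudokinase that ATF4 and CHOP induce and that restrains ATF4, had 3.78, 3.95 and 4.12 in HighThreat animals, against 4.10, 3.78 and 3.87 in LowThreat pools. Its groups overlapped over most of their range, and the difference of 0.05 did not pass (SE 0.0826, limma adjusted p 0.686).

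Among the 15 chaperones and folding enzymes 7 were lower (46.7%, against 22.0% of all genes tested) and 1 was higher (6.67%, against 23.8%). The other 7 did not pass, and the median was -0.10. Hspa5 encodes BiP, the ER Hsp70 that binds unfolded chains and holds the sensors inactive. Its values were 10.42, 10.47 and 10.52 in HighThreat animals (lowest, median and highest), against 10.92, 10.97 and 10.98 in LowThreat pools. Every animal lay below every pool, and BiP mRNA was 1.4-fold lower (log2 difference -0.49, SE 0.0439, limma adjusted p 1.62e-06). Hsp90b1 encodes GRP94, the ER Hsp90, and had 8.39, 8.55 and 8.60 in HighThreat animals, against 8.96, 9.003 and 9.12 in LowThreat pools. This was a difference of -0.51 (SE 0.0612, limma adjusted p 2.09e-05), again with no overlap, and -0.40 by its other probe set.

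Dnajb9 encodes ERdj4, a BiP cochaperone that is a target of XBP1 and keeps IRE1 inactive through BiP. It had 7.62, 7.69 and 7.75 in HighThreat animals, against 8.47, 8.46 and 8.38 in LowThreat pools. The gap between the highest animal and the lowest pool was wider than the range of either group, and Dnajb9 was 1.69-fold lower (log2 difference -0.75, SE 0.0476, limma adjusted p 6.76e-08). Sdf2l1 encodes a soluble ER protein that binds Hsp40 cochaperones and, like BiP, is induced by ER stress. It had 6.26, 6.31 and 6.36 in HighThreat animals, against 5.79, 5.86 and 5.54 in LowThreat pools, and was the only chaperone called higher (log2 difference 0.58, SE 0.0646, limma adjusted p 9.8e-06). All animals lay above all pools, of which pool 5-6 was the lowest.

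**Figure D3:**
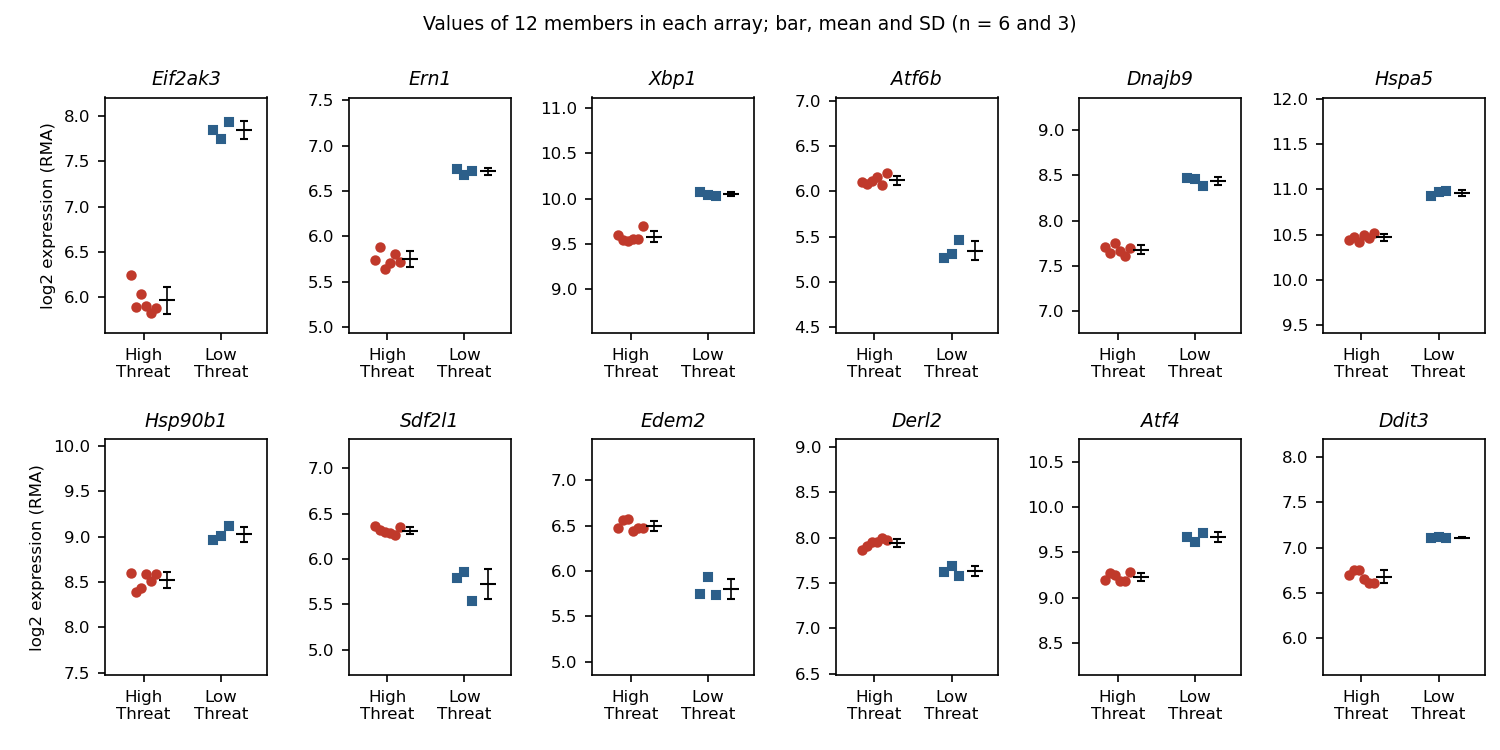
Log2 expression of 12 of the genes in each array, with HighThreat animals (red circles, n = 6) left of LowThreat pools (blue squares, n = 3) and bars for the mean and SD. All 12 genes shown are among those whose groups do not overlap, so no overlapping gene is drawn. Over all genes tested, 20.3% did not overlap with HighThreat lower and 21.5% with HighThreat higher. The vertical axes span equal log2 ranges.

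The other chaperones called lower differed less. Manf, an ER-resident and secreted factor that binds BiP, had 7.83, 7.89 and 7.93 in HighThreat animals, against 8.19, 8.18 and 8.08 in LowThreat pools (-0.26, SE 0.0468, limma adjusted p 0.000528). Calr, the lectin chaperone calreticulin, had 9.60, 9.66 and 9.69 in HighThreat animals, against 9.84, 9.85 and 9.85 in LowThreat pools (-0.19, SE 0.0426, limma adjusted p 0.00242). For both genes all animals lay below all pools, and the pools of Calr were almost equal. Hyou1, the large Hsp70 relative that exchanges nucleotide on BiP, had 6.94, 7.02 and 7.06 in HighThreat animals, against 7.19, 7.22 and 7.13 in LowThreat pools, without overlap (-0.16, SE 0.046, limma adjusted p 0.0122). Its call was lost without LowThreat pool 3-4 (limma adjusted p 0.0547). Canx, the membrane lectin calnexin, had 9.12, 9.15 and 9.31 in HighThreat animals, against 9.26, 9.42 and 9.34 in LowThreat pools, where animal 5 lay above pool 1-2. Its difference was -0.15 (SE 0.0571, limma adjusted p 0.0455), and the call was lost on leaving out LowThreat pool 3-4 or 5-6 or HighThreat animal 1, 2, 3 or 4 (limma adjusted p 0.077 to 0.191). In the fit over all probe sets tested, this probe set of Canx did not pass (limma adjusted p 0.0595), nor did its others (0.173 and 0.822).

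The 7 chaperones that did not pass ranged from -0.10 to 0.11. They hold the disulfide isomerases Pdia3 (ERp57, which works with the lectin chaperones), Pdia4 (ERp72), Pdia6 (P5) and P4hb (PDI), the BiP cochaperones Dnajb11 (ERdj3) and Dnajc3 (p58IPK), and Creld2. Pdia3 had 9.0, 9.23 and 9.35 in HighThreat animals, against 9.27, 9.24 and 9.13 in LowThreat pools, with a difference of 0.003 and the pools inside the animals' range. P4hb had 9.29, 9.29 and 9.32 in HighThreat animals, against 9.14, 9.29 and 9.14 in LowThreat pools (0.11, SE 0.0471, limma adjusted p 0.0827). Pool 3-4 of P4hb equalled the lowest animals, and without that pool P4hb was called higher (0.16, limma adjusted p 0.0203). Pdia4, Pdia6 and Creld2 had differences of -0.08, -0.08 and -0.10 (SE 0.0627, 0.0468 and 0.0579). Dnajb11 had 7.50, 7.52 and 7.57 in HighThreat animals, against 7.47, 7.52 and 7.36 in LowThreat pools, and overlapped. Dnajc3 had 7.18, 7.28 and 7.35 in HighThreat animals, against 7.42, 7.38 and 7.18 in LowThreat pools, and its dimmer probe sets gave -0.46 and -0.20, both called lower over all probe sets tested (limma adjusted p 2.57e-05 and 0.0285), and -0.12, not called.

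Several of these chaperones share a promoter sequence known to bind ATF6 with the factor NF-Y, the ER stress response element, whose letters are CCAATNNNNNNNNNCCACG. Windows of 300 bases (250 before to 50 after the RefSeq start) were found for 29 of the 35 genes and searched on both strands. Manf, Hyou1, Derl1, Atf6, Ppp1r15b and Sec61a1 had none. The element lay in 8 of the 30 windows of these genes (Derl2 has 2 windows) and in 0.119% of all 32851 windows. A shorter form, ATTGGNCCACG, lay in 2 (Dnajb11 and Herpud1) and in 0.0365% of all windows. The UPR element TGACGTGG lay in none of the 30 and in 0.676% of all windows. The cAMP response element TGACGTCA lay in the window of Ppp1r15a alone and in 1.79% of all, and the CEBP-ATF response element TGATGCAA in that of Herpud1 alone and in 0.895% of all. The UPR and cAMP response elements share the letters TGACGT, and the UPR element holds the reverse complement of CCACG.

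The 10 genes with either form of the element comprised 0 called higher, 5 called lower (Hspa5, Hsp90b1, Calr, Canx and Syvn1) and 5 that did not pass (Pdia6, Dnajb11, Dnajc3, Creld2 and Herpud1), with a median difference of -0.13. The 19 genes with a window and neither form comprised 5 called higher, 7 called lower and 7 that did not pass, with a median of 0.002. Of all genes tested, 23.8% were called higher and 22.0% lower. The largest differences, those of Eif2ak3, Ern1, Atf6b and Dnajb9, were in genes whose windows hold neither form. A match is a run of letters and no measure of binding, and these groups were not tested against each other.

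The promoter sequences that hold the element are printed for the chaperones, with its fixed letters in capitals. On the minus strand of a gene the element reads CGTGG first and ATTGG last. For Hspa5 the 250 bases before the start are shown (plus strand, chr2:34771840-34772089), since BiP is the best-known target. For the others the element is shown with up to 20 bases on each side: Hsp90b1 (minus strand, chr10:86705513-86705676), which holds it once in each orientation, Calr (minus strand, chr8:84847055-84847113), Canx (minus strand, chr11:50325780-50325838), Creld2 (plus strand, chr15:88819500-88819558), Dnajc3 (plus strand, chr14:118937807-118937865), Pdia6 (plus strand, chr12:17266471-17266529) and Dnajb11 with the shorter form (plus strand, chr16:22857832-22857862).
Hspa5: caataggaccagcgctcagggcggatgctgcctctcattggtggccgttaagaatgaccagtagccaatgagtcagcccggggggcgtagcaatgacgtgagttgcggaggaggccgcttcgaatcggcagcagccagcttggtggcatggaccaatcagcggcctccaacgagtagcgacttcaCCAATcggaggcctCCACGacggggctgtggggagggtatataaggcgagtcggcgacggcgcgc
Hsp90b1: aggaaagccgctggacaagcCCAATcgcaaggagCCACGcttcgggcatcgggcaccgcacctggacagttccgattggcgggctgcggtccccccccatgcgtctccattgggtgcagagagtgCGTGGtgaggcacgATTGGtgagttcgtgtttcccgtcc
Calr: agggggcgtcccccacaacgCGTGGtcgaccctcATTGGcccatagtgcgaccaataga
Canx: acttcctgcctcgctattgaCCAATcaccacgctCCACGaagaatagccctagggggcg
Creld2: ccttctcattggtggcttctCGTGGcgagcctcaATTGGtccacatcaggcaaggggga
Dnajc3: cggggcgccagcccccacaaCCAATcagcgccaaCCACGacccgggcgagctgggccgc
Pdia6: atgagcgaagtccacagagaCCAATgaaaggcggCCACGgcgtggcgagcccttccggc
Dnajb11: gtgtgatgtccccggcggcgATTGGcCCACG

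For comparison, the 100 bases before the start are given for the 2 chaperones with the largest differences, which hold no element: Dnajb9 (minus strand, chr12:44210069-44210168), lower in HighThreat, and Sdf2l1 (minus strand, chr16:17132384-17132483), higher in HighThreat.
Dnajb9: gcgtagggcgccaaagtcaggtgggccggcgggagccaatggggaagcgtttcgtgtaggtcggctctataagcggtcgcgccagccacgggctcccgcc
Sdf2l1: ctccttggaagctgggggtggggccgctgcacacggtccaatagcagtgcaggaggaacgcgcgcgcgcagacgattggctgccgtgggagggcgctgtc

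**Figure D4:**
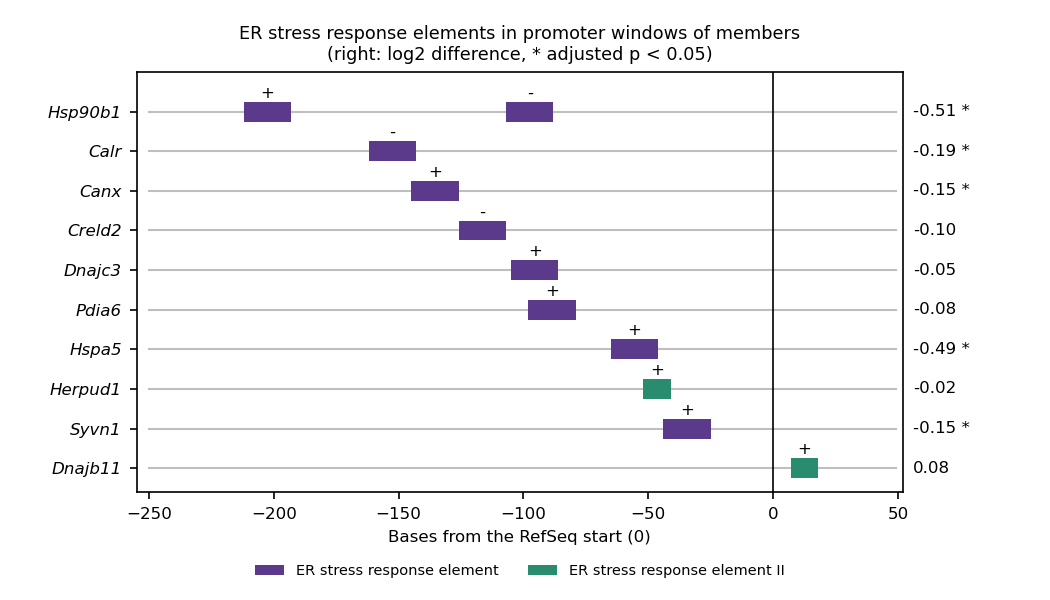
Position of the ER stress response element (purple) and its shorter form (green) in the 300-base RefSeq windows of the 10 genes that hold one, in bases from the start, with the strand above each bar and the log2 difference, HighThreat minus LowThreat, at the right. The 8 genes with the longer form hold it before the start, and their differences run from -0.51 for Hsp90b1 to -0.05 for Dnajc3.

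Of the 7 degradation genes 2 were higher (28.6%, against 23.8% of all genes tested) and 1 was lower (14.3%, against 22.0%). The other 4 did not pass, and the median was 0.002. Edem2 encodes the ER mannose-trimming protein that starts the marking of misfolded glycoproteins. It had 6.44, 6.48 and 6.58 in HighThreat animals, against 5.75, 5.93 and 5.74 in LowThreat pools. All animals lay above all pools, and Edem2 was 1.62-fold higher (log2 difference 0.70, SE 0.0566, limma adjusted p 6.71e-07). With the mean of its probe sets, of which the other was too dim to be tested alone, the difference was 0.41 (limma adjusted p 0.000596). Its paralog Edem1, a target of XBP1, had 8.57, 8.68 and 8.72 in HighThreat animals, against 8.65, 8.64 and 8.68 in LowThreat pools, with the pools inside the animals' range and a difference of 0.0023 (SE 0.0491, limma adjusted p 0.974). The other probe set of Edem1 gave -0.14 and did not pass (limma adjusted p over all probe sets tested 0.0514). Derl2, a membrane protein of the retrotranslocation site, had 7.86, 7.95 and 7.99 in HighThreat animals, against 7.63, 7.68 and 7.58 in LowThreat pools, without overlap (0.31, SE 0.0475, limma adjusted p 0.000159). The dim probe set of Derl2 gave -0.01, and with the mean of both the call was lost (0.15, limma adjusted p 0.0508).

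Syvn1 encodes HRD1, the ubiquitin ligase at the centre of this pathway, and Sel1l its partner. Syvn1 had 6.79, 6.92 and 6.97 in HighThreat animals, against 7.11, 6.96 and 7.11 in LowThreat pools, where animal 4 lay above pool 3-4. Its difference was -0.15 (SE 0.0556, limma adjusted p 0.0394), and the call was lost on leaving out LowThreat pool 1-2 or 5-6 or HighThreat animal 1, 2, 3 or 6 (limma adjusted p 0.0501 to 0.141). In the fit over all probe sets tested, this probe set of Syvn1 did not pass (limma adjusted p 0.0518), while its other was called lower (-0.16, limma adjusted p 0.0342). Sel1l had 7.13, 7.21 and 7.29 in HighThreat animals, against 7.04, 7.12 and 7.16 in LowThreat pools, a difference of 0.11 that did not pass (SE 0.0506, limma adjusted p 0.0946). Derl1, the paralog of Derl2, did not pass by its brightest probe set (-0.12, SE 0.052, limma adjusted p 0.0893), while another of its probe sets was called higher by 0.22, so no direction is given for it. Herpud1, the scaffold HERP that is induced strongly by ER stress, had 8.49, 8.52 and 8.55 in HighThreat animals, against 8.58, 8.53 and 8.52 in LowThreat pools (-0.02, SE 0.0414, limma adjusted p 0.677).

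Sequences are shown for Edem2, as the degradation gene with the largest difference (the 100 bases before the start, minus strand, chr2:155729476-155729575), and for Syvn1 (plus strand, chr19:6046512-6046570) and Herpud1 (plus strand, chr8:94386357-94386407), whose elements have their fixed letters in capitals.
Edem2: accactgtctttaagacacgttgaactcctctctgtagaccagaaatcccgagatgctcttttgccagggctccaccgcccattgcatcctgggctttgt
Syvn1: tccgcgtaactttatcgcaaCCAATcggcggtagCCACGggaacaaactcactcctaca
Herpud1: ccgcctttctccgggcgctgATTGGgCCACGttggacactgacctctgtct

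Of the 3 translocon genes 1 was higher (33.3%, against 23.8% of all genes tested), 0 were lower (against 22.0%) and 2 did not pass. Sec61b, the small beta subunit of the Sec61 channel through which new chains enter the ER, had 9.49, 9.63 and 9.69 in HighThreat animals, against 9.27, 9.33 and 9.08 in LowThreat pools. All animals lay above all pools, with a difference of 0.37 (SE 0.067, limma adjusted p 0.000531). Sec61a1, the channel-forming subunit, had 8.68, 8.72 and 8.80 in HighThreat animals, against 8.73, 8.79 and 8.79 in LowThreat pools (-0.05, SE 0.0459, limma adjusted p 0.457). Ssr1, a subunit of the translocon-associated protein complex, had 8.01, 8.17 and 8.21 in HighThreat animals, against 8.30, 8.28 and 8.16 in LowThreat pools (-0.10, SE 0.0558, limma adjusted p 0.181). Both overlapped.

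Several genes were measured by more than 1 probe set. The 35 genes have 87 probe sets, of which 81 passed the filter, and 23 genes have more than 1 tested. In a fit over all probe sets tested, 3 of these genes (Hsp90b1, Ddit3 and Ppp1r15b) had every probe set called in 1 direction, 12 had called and uncalled probe sets, 8 had none called and 0 had calls in opposite directions. Hspa5 gave -0.49 and -0.53 by its bright probe sets and 0.03 by its dimmest. Atf4 gave -0.44, -0.75 and, by its dimmest, -0.07.

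**Figure D5:**
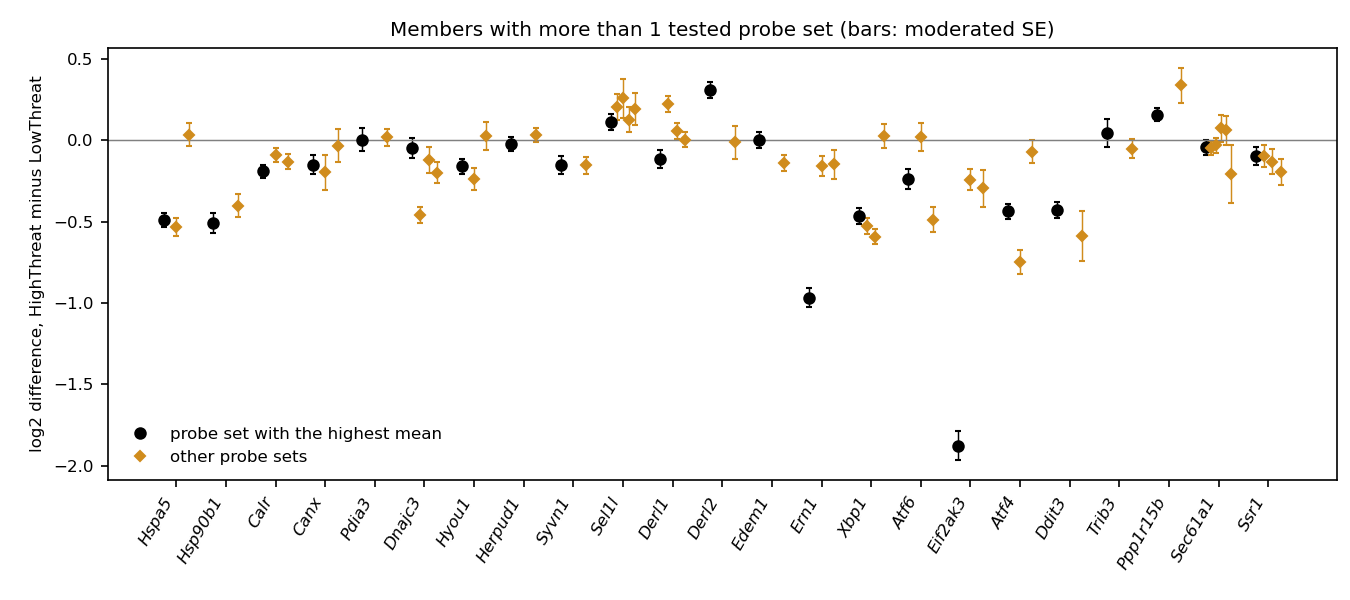
Log2 difference, HighThreat minus LowThreat, of each tested probe set of the 23 genes with more than 1, with the moderated SE as a bar (black, the probe set with the highest mean; orange, the others). Every tested probe set of Hsp90b1, Ddit3 and Ppp1r15b was called in 1 direction. Other genes, such as Sel1l and Atf4, also have all points on 1 side of 0, but without every point called. The orange points of Eif2ak3 and Ern1 lie nearer to 0 than the black ones.

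A wider list of 132 further genes of the pathway, of which 122 were tested, had 25 higher (20.5%, against 23.8% of all genes tested), 38 lower (31.1%, against 22.0% of all genes tested) and 59 that did not pass, with a median of -0.04. Neither this list nor its parts were tested as lists. Among 27 further folding and glycan trimming genes, 6 were higher (22.2%) and 4 lower (14.8%). Qsox1, a sulfhydryl oxidase, had 6.29, 6.39 and 6.63 in HighThreat animals (lowest, median and highest), against 4.97, 4.56 and 4.53 in LowThreat pools (1.75, SE 0.0982, limma adjusted p 2.48e-08). Ero1b, an oxidase that recharges PDI and is prominent in secretory cells, had 6.997, 7.07 and 7.10 in HighThreat animals, against 7.98, 8.02 and 7.90 in LowThreat pools (-0.90, SE 0.0466, limma adjusted p 1.24e-08). Neither gene overlapped between groups. Fkbp2 rose by 0.52 (SE 0.049, limma adjusted p 2.53e-06) and Txndc5 fell by 0.30 (SE 0.0578, limma adjusted p 0.000864), while the brightest of these genes, Serp1, differed by 0.08 and did not pass.

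Of 19 further degradation genes 5 were higher (26.3%, against 23.8% of all genes tested) and 6 lower (31.6%, against 22.0%). Ngly1, the cytosolic glycanase, and Erlec1, an ER lectin, differed by 0.76 and 0.37 (SE 0.0598 and 0.0688). Herpud2 and Edem3 differed by -0.42 and -0.35 (SE 0.0668 and 0.0691), and the brightest gene, Vcp, which encodes the ATPase that pulls chains into the cytosol, by -0.27 (SE 0.0514, limma adjusted p 0.000796). Of 29 genes of the translocon, signal peptidase and oligosaccharyltransferase 6 were higher (20.7%, against 23.8%) and 8 lower (27.6%, against 22.0%). Ddost and Rpn2, both subunits of the oligosaccharyltransferase, differed by 0.46 and 0.39 (SE 0.0587 and 0.0461), and Spcs1, a signal peptidase subunit and the brightest of the list, by 0.35 (SE 0.0512). Ssr3 and Srprb, a translocon-associated subunit and a subunit of the signal recognition particle receptor, differed by -0.29 and -0.27 (SE 0.056 and 0.076). All named here but Serp1 were called.

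Of 30 ATF4 target genes tested, 4 were higher (13.3%, against 23.8% of all genes tested), 15 were lower (50%, against 22.0% of all genes tested) and 11 were not called, with a median of -0.19, against 0.03 over all genes. These counts carry no test of the list. Slc7a1, which carries cationic amino acids, had 6.82, 6.83 and 6.94 in HighThreat animals, against 8.0, 8.02 and 7.90 in LowThreat pools (-1.13, SE 0.0488, limma adjusted p 2.91e-09). Slc7a5, the light chain of the leucine transporter LAT1, had 4.29, 4.67 and 4.81 in HighThreat animals, against 5.56, 5.61 and 5.46 in LowThreat pools (-0.93, SE 0.101, limma adjusted p 7.87e-06). Its partner Slc3a2, the brightest of the list, differed by 0.05 and did not pass (limma adjusted p 0.526). Among the genes called higher, Asns, asparagine synthetase, had 5.49, 5.76 and 5.98 in HighThreat animals, against 3.79, 4.33 and 4.11 in LowThreat pools (1.66, SE 0.127, limma adjusted p 3.95e-07), and Nupr1 was higher by 0.59 (SE 0.0638, limma adjusted p 8.66e-06). The groups did not overlap for these 4 called genes.

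Of 17 other regulators tested 4 were higher (23.5%, against 23.8% of all genes tested) and 5 lower (29.4%, against 22.0%). Creb3, an ER-anchored transcription factor related to ATF6, was higher by 0.65 (SE 0.0526, limma adjusted p 6.46e-07), and Bak1, a mitochondrial and ER death effector, by 0.52 (SE 0.08, limma adjusted p 0.000164). Eif2ak4, which encodes the eIF2alpha kinase GCN2, differed by -0.52 (SE 0.0824, limma adjusted p 0.00019) and Creb3l2 by -0.40 (SE 0.0815, limma adjusted p 0.00133), both called lower at dim probe sets. The brightest, Bcl2l11, which encodes BIM, differed by -0.04 and did not pass.

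Pearson correlations between arrays were taken over the chosen probe sets of the 13079 genes tested. They were 0.996 to 0.998 between HighThreat animals (15 pairs), 0.996 to 0.998 between LowThreat pools (3 pairs) and 0.972 to 0.977 between HighThreat and LowThreat arrays (18 pairs). Of all genes tested, 3119 were higher and 2876 lower. As a measure of RNA integrity, the 3′ minus 5′ difference of the beta-actin control probe sets was 0.36 ± 0.03 in HighThreat animals and 0.47 ± 0.06 in LowThreat pools (SD, n = 6 and 3), lower by a difference of -0.12 (exact permutation test over 84 divisions, two-sided p 0.0238). For Gapdh the same difference was -0.04 (exact permutation p 0.512). The part of RNA integrity in the results was not tested.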

How the data were processed

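Expression was measured on Affymetrix MOE430 arrays of biotin-labelled total RNA. The authors deposited RMA values, per the submitters' processing notes, and each is taken here as log2 because the values run between 0.607 and 13.567. The version and settings of RMA and the base of its logarithm were not given in the sources used here. Because RMA equalises the arrays, a difference in total RNA per cell is not measured, and it gives no detection call. Arrays give no read depth, and their number (6 and 3) limits the precision.

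Without the controls there are 45037 probe sets, and the platform's annotation names 1 gene for 34945, several for 932 and none for 9160. Of the 34945, 34741 were matched by Entrez number to RefSeq (GRCm38.p6) and took the symbol given there. Each gene was read from the probe set with the highest mean over all arrays and tested if that mean reached the 40th percentile of probe sets (2.66), which left 13079 of 18193 genes. The difference HighThreat minus LowThreat came from limma 3.58.1 in R 4.3.3, using lmFit and eBayes on all 9 arrays with no covariate, two-sided, with Benjamini-Hochberg adjusted p under 0.05 over all genes tested. SE is the moderated standard error. Tested on simulated data with 50 genes per size among 13079, the fit called 26% of changes of 0.25 on the log2 scale, 92% of 0.5 and 100% of 1, with 8 false calls among 12879 genes. The simulation left those 12879 genes unchanged and gave both groups the same spread. In the data 3119 genes were called higher and 2876 lower, and animals were set against pools. The simulated rates therefore do not carry over to this comparison. P-values measure the spread between these arrays, which hold single animals in HighThreat and pools in LowThreat.

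The 35 genes and all lists were chosen with earlier results of these data known. All 35 are named; from each further list the text names the 2 largest called rises and falls and the brightest gene, and from each marker list the brightest gene and the largest called difference. Promoters are RefSeq windows, printed for the 6 called genes with the largest differences and for genes with an ER stress response element. Alternatives changed the filter, the normalization, the choice of probe set, the weight of pools, the variance model and the arrays included. The labels state no pairing of the groups by replicate number. The deviations of same-numbered animals and pools correlated at 0.149, -0.152 and -0.029, and those of differently numbered ones at -0.110 to 0.158. So few correlations cannot show whether the samples were paired.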

Additional observations from a re-analysis of the deposited data

Results flagged for a closer look

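In 4 of the 35 genes 1 HighThreat animal stood apart from the other 5 by Dixon's criterion (its gap to the nearest of the others, as a share of the whole range), which chance meets in about 1 of 20 groups. P4hb was highest in animal 3, at 9.323, with the others between 9.288 and 9.299. Hyou1 was lowest in animal 6, at 6.941, with the others between 7.019 and 7.056. Ppp1r15b was highest in animal 5, at 7.884, with the others between 7.808 and 7.831. Ssr1 was lowest in animal 3, at 8.009, with the others between 8.147 and 8.208. LowThreat has 3 arrays and was not examined in this way.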

How the results depend on the processing

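Over 19 alternatives the 35 genes had 6 to 7 called higher and 13 to 16 called lower, and all genes had 2610 to 3370 higher and 2524 to 2983 lower. The further pathway genes had 22 to 30 higher and 36 to 42 lower. Of the 35 genes, 24 kept their side of the threshold in all 19, including 16 of the 21 called genes, which also kept their direction. Among the uncalled genes of the 24, Pdia3, Herpud1, Edem1 and Trib3 changed sign between alternatives. Canx and Syvn1 lost their calls in 11 each, Hyou1 in 2, Derl2 in 1, and Xbp1 turned. With the mean of each gene's probe sets Pdia6, Dnajc3 and Ssr1 were called lower (-0.21, -0.20 and -0.13) and Sel1l higher (0.18). The median difference of the 35 genes was -0.12 at that setting, and -0.123 to -0.0709 on leaving out 1 array at a time. When transcript-specific probe sets were preferred over brighter ones, Derl1 turned to 0.22 (limma adjusted p 0.00257) and Xbp1 to 0.0263 (limma adjusted p 0.794), both read from dimmer probe sets than before. The 3′ minus 5′ difference of beta-actin was -0.149 to -0.087 on leaving out 1 array at a time, and it no longer passed without LowThreat pool 3-4 or 5-6 (exact permutation p 0.0714 each). With number pairs as a replicate block, 6 of the 35 genes were higher and 14 lower (Syvn1 was lost, limma adjusted p 0.0539). In all, 3084 genes were higher and 2860 lower at this setting. The labels do not state that the numbers pair the samples. The median of all genes moved between 0.02 and 0.04 over the settings. RMA values near background compress differences, which limits dim genes such as Trib3, and 3 pools limit the estimate of spread in LowThreat.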
